A study of Mus musculus with 9 samples.

Results

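Hoxb5-positive libraries of megakaryocyte progenitor type were set beside Ly6a-high libraries of stem cell type in a table of messenger RNA from mouse bone marrow. The table has 9 libraries without names, numbered here by their order in it, and 4 of the 9 entered the comparison. They were chosen by their own values of Ly6a and Hoxb5. Ly6a encodes Sca1, the surface protein that separates the stem cell gate from the progenitor gate, and Hoxb5 is a homeobox gene used as a marker of long-term stem cells. Libraries 3 and 4 had at least 1000 normalized counts of Ly6a (4256 and 5772, with the next library at 187). Libraries 8 and 9 had less Ly6a and at least 50 normalized counts of Hoxb5 (195 and 112, with the next Ly6a-low library at 11.8). The remaining 5 libraries (1, 2, 5, 6 and 7) reached neither threshold. Libraries 3 and 4 also held Hoxb5 (400 and 223), so the name Hoxb5-positive sets libraries 8 and 9 apart only among the Ly6a-low libraries. Because values of these libraries chose the pairs, every difference between the pairs is a description, and no test was made.

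The samples came from male FlkSwitch mice on a C57BL/6 background, made by crossing Flt3-cre mice to mTmG reporter mice, so all groups carry Cre and the reporter. In these mice a cell shows the red protein Tom until Cre, driven by the Flt3 gene, has been made in it or an ancestor, after which it shows GFP. Sorted cells formed 4 groups: GFP+ megakaryocyte progenitors (MkP) of young mice (3 months, 3 samples), GFP+ MkP of old mice (2 samples), Tom+ MkP of old mice (2 samples) and Tom+ haematopoietic stem cells (HSC) of old mice (2 samples), with old meaning 18 to 20 months. MkP were gated as Lin-, cKit+, Sca1-, CD150+ and CD41+, HSC as CD150+, Flk2- and Tom+ cells of the Lin-, cKit+ fraction with a Sca gate that the labels print as Sca+-. Library names were not given with the values, so which library is which sample is unknown. "Ly6a-high" and "Hoxb5-positive" are therefore names inferred from marker genes, and no statement about old against young or Tom+ against GFP+ cells follows from them.

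A haematopoietic stem cell divides rarely and keeps a set of transcription factors, adhesion molecules and cell cycle inhibitors that hold it in its niche. A megakaryocyte progenitor divides and starts to make the glycoproteins, granule proteins and signalling proteins that platelets need. CD41, the product of Itga2b, is the receptor subunit by which the MkP gate was drawn.

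The table holds 2402 genes, and reads recovered from it came to between 1790670 and 4373460 per library over these genes, which is not the whole depth. Where a gene is at 0, its level can still reach the worth of 3 reads (2.17 to 5.89 normalized counts, by library). Of the 11 stem cell markers 6 were in the table (Procr, Mecom, Hlf, Kit, Ndn and Meg3). Their summed level was 10958 normalized counts in library 3 and also 10958 in library 4, 1198 and 861 in libraries 8 and 9, and 95.6 to 212 in the remaining 5. Of the 9 megakaryocyte markers 5 were in the table (Itga2b, Pf4, Gp1bb, Gp9 and Treml1). Their sum was 3026 and 8710 in libraries 3 and 4, 97638 and 72437 in libraries 8 and 9, and 106165 to 134960 in the remaining 5. Itga2b alone stood at 1616 and 6543 in the Ly6a-high pair and at 68308 and 45798 in the Hoxb5-positive pair. Itga2b, which describes the pairs in the rule itself, made up most of this second sum, so it gives the names no support of its own. In bulk samples, fewer cells of a type and less RNA per cell cannot be told apart.

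For each gene the pairs were compared by their nearest libraries: the fold is the lower library of the higher pair over the higher library of the lower pair. Its base-2 logarithm, taken after adding 1 normalized count, is called the separation here. It is positive where the Hoxb5-positive pair is higher, negative where the Ly6a-high pair is higher, and 0 where the pairs overlap. A gene was called higher in a pair when the pairs lay at least 2-fold apart. Intervals in brackets are exact 95% intervals of the fold and cover counting error only, not the spread between animals, and reads shared with overlapping genes, antisense genes or paralogs cannot be separated.

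Genes had to reach 10 normalized counts in 2 or more of the 4 libraries, and 2274 did. Of these, 623 (27.4%) were higher in the Ly6a-high pair, Ly6a among them, and 314 (13.8%) were higher in the Hoxb5-positive pair. Counts of the gene lists below are to be read against these shares. At least 4-fold apart were 255 (11.2%) and 111 (4.88%). The median separation over all 2274 genes was -0.27. Ly6a-high calls thus made up 66.5% of all calls as deposited, but 80.1% when every library was scaled to the same table total and 47.6% under median-of-ratios scaling. The median gene differed between the pairs by -0.68 on the log2 scale (Hoxb5-positive minus Ly6a-high) as deposited, by -1.12 and by -0.22 under these scalings, so each difference is to be read against that shift. Without library 4 the genes higher in the Hoxb5-positive pair numbered 527.

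**Figure D1:**
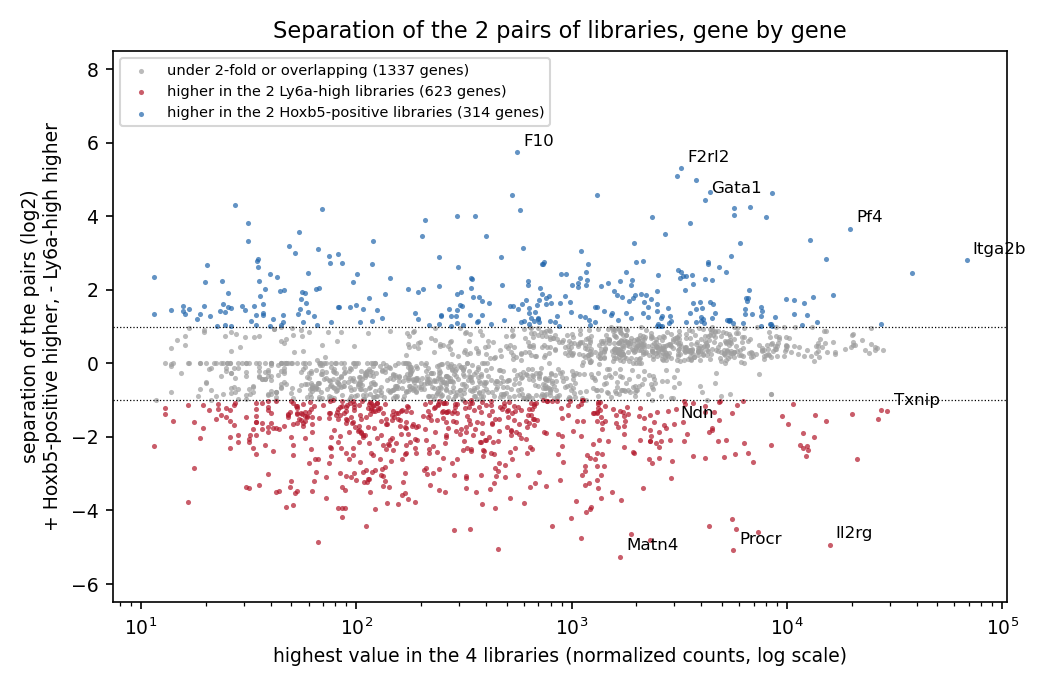
Each point is 1 of 2274 genes, with its highest value in the 4 libraries (normalized counts, log scale) across and the separation of the pairs (log2) upward; dotted lines mark 2-fold. Above the upper line lie 314 genes higher in the Hoxb5-positive pair, led by F10, and below the lower line 623 genes higher in the Ly6a-high pair, with Matn4 lowest.

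Genes of stem cell identity were mostly higher in the Ly6a-high pair. Of 47 listed genes 20 were in the table besides Hoxb5 and all of these passed the filter. In the Ly6a-high pair 15 were higher, in the Hoxb5-positive pair 1 was higher, and the median separation was -1.62 against -0.27 over all genes. Procr, the endothelial protein C receptor by which stem cells are often sorted, lies on chromosome 2 (155751117 to 155755471, GRCm38, as all gene positions here). It stood at 5639 and 3329 normalized counts in libraries 3 and 4. It stood at 97.5 and 17.4 in libraries 8 and 9, and at 16.3 to 31.4 in the remaining 5. The nearest libraries were 34.1-fold apart (27.8 to 42.4), and library 9 lay inside the range of the remaining 5 while library 8 lay above it.

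Hlf, a transcription factor of stem cells, had 761 and 408 normalized counts in the Ly6a-high pair and 37.7 and 39.8 in the Hoxb5-positive pair, with 13.04 to 19.7 in the remaining 5. Here the 3 sets did not overlap, and the middle place was taken by libraries 8 and 9 (10.3-fold below the Ly6a-high pair). The homeobox gene Nkx2-3 showed the same order, at 2908 and 2848, then 329 and 85.5, then 18.1 to 29.2. Tgm2, a transglutaminase that cross-links proteins, went from 8582 and 11551 to 1859 and 1014, with 86.7 to 149 in the remaining libraries. The stem cell marker Kit, the receptor used in both gates, did not reach a 2-fold separation (481 and 279 against 198 and 67.4). Tie1, a receptor tyrosine kinase, was also under 2-fold apart (2733 and 1904 against 1676 and 918).

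Among genes of quiescence and imprinting, 8 of 32 listed genes were in the table and passed. The Ly6a-high pair was higher for 6 and the Hoxb5-positive pair for 0, against 27.4% and 13.8% of all genes. The median separation was -1.48. Cdkn1c encodes p57, an inhibitor of cyclin-dependent kinases. It had 2934 and 1032 normalized counts in libraries 3 and 4 against 165 and 127 in libraries 8 and 9, and 11.5 to 43.2 in the rest. Meg3, an imprinted long non-coding RNA, had 900 and 4332 against 40.9 and 9.42, a nearest difference of 22.0-fold (16.0 to 31.2).

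Ndn, which encodes the imprinted growth suppressor necdin (chromosome 7, 62346569 to 62350262), took an intermediate level in the Hoxb5-positive pair. It was at 2994 and 2546 in the Ly6a-high pair, at 804 and 718 in the Hoxb5-positive pair, and at 33.7 to 100.1 in the remaining 5. The nearest libraries of the pairs were 3.17-fold apart (2.91 to 3.44), and the Hoxb5-positive pair stood 7.17-fold above the highest remaining library. Txnip, a thioredoxin-binding protein that is abundant in resting cells, had 29249 and 11983 against 4854 and 1601, and was under 2-fold apart under median-of-ratios scaling.

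**Figure D2:**
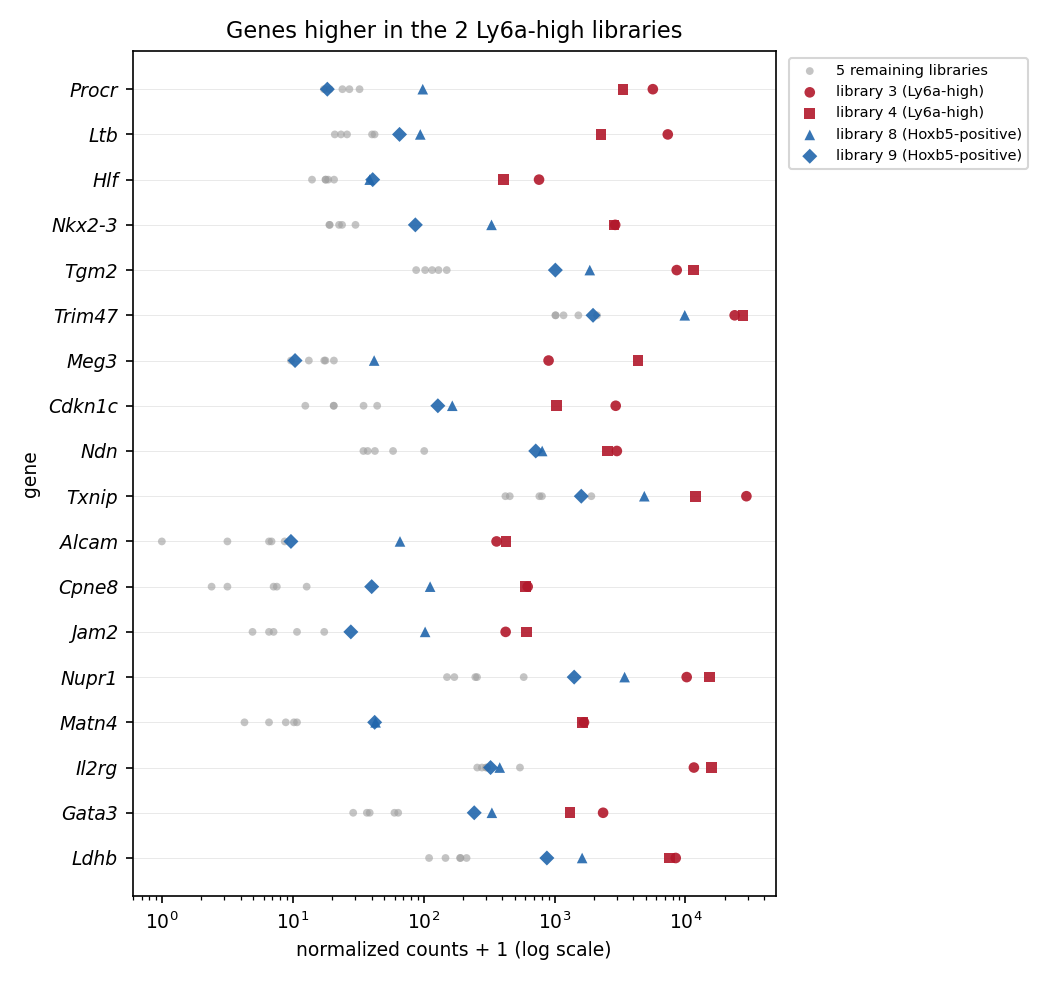
Normalized counts plus 1 (log scale) of 18 genes higher in the Ly6a-high pair, with 1 mark per library: red for libraries 3 and 4, blue for libraries 8 and 9, grey for the remaining 5. Red marks lie to the right of all blue marks in every gene shown, and for Ndn the blue marks (804 and 718) lie clear of the grey ones (at most 100.1).

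Genes known to increase in stem cells of old mice showed the same direction in part. Of 32 listed, 9 were in the table and passed, with a median separation of -1.58. The Ly6a-high pair was higher for 6 and the Hoxb5-positive pair for 1, against 27.4% and 13.8% of all genes. Cpne8, a calcium-dependent phospholipid-binding protein, had 623 and 601 normalized counts against 111 and 39.1, with 1.40 to 11.8 in the remaining libraries. Nupr1, a stress-induced chromatin protein, had 10230 and 15198 against 3431 and 1412, but was under 2-fold apart under median-of-ratios scaling. Sdpr, a caveola protein also found in platelets, went the other way, with 2693 and 910 against 6255 and 5723 (2.13-fold, 2.03 to 2.23), and was under 2-fold apart when scaled to table totals.

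Of 47 listed adhesion and niche receptor genes 16 were in the table and 15 passed. The Ly6a-high pair was higher for 12 and the Hoxb5-positive pair for 1, with a median separation of -2.04. Efna1, a ligand of Eph receptors, had 1101 and 672 normalized counts in libraries 3 and 4, 24.1 in library 8 and 1.45 (2 reads) in library 9. Cldn5, a tight junction protein, had 891 and 1897 against 34.6 and 5.79. Jam2, a junctional adhesion molecule, had 422 and 612 against 102 and 26.8. Alcam, an adhesion molecule of the immunoglobulin family, had 360 and 424 against 65.0 and 8.69. Library 8 stood above library 9 in these 4 genes and in 9 of all 15, while library 9 stood above in 6, Emcn among them. Cd9, a tetraspanin of platelets, was the gene higher in the Hoxb5-positive pair, at 4115 and 4385 against 10828 and 12379, and it was under 2-fold apart with table totals.

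The list of stromal and endothelial genes, which shares Efna1, Cldn5 and Emcn with the adhesion list, had 5 of 32 genes in the table, which all passed, with 4 higher in the Ly6a-high pair and 0 in the other. Emcn, the endomucin gene and the 1 measured of 5 defining markers of stromal and endothelial cells, had 322 and 213 normalized counts in libraries 3 and 4. It had 13.6 and 19.6 in libraries 8 and 9 and 0 to 9.21 elsewhere. Stem cells themselves are known to make endomucin. The part of other cells in these values was not tested.

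Transcription factors were called in both directions. Of 47 listed 15 were in the table and 13 passed, at a median separation of -1.01. The Ly6a-high pair was higher for 7 and the Hoxb5-positive pair for 3, against 27.4% and 13.8% of all genes. These counts depended on the scaling: they were 8 and 1 with table totals and 3 and 5 under median-of-ratios scaling. Without library 3 they were 8 and 5. Gata1, the master regulator of megakaryocyte and erythroid genes (chromosome X, 7959260 to 7978071), had 37.8 and 165 normalized counts in the Ly6a-high pair and 4170 and 3626 in the Hoxb5-positive pair. The nearest libraries lay 22.0-fold apart (18.6 to 26.2), and the remaining 5 were higher still, at 6364 to 8053. Id2, an inhibitor of basic helix-loop-helix factors, went from 460 and 638 down to 32.5 and 44.2. Fli1, an ETS factor active in both cell types, did not reach 2-fold as deposited (2031 and 1661 against 5676 and 3994, 1.97-fold). Mef2c, a MADS box factor, was 1.46-fold higher in the Hoxb5-positive pair (7726 and 3889 against 15070 and 11263).

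Genes that lead the ranking on the stem cell side belong to varied classes. Matn4, a matrilin of the extracellular matrix (chromosome 2, 164389393 to 164405160), had the largest separation among genes with at least 50 normalized counts in both higher libraries. It had 1680 and 1639 normalized counts in libraries 3 and 4, 41.9 and 41.3 in libraries 8 and 9, and 3.28 to 9.78 in the remaining 5. The nearest libraries were 39.1-fold apart (28.6 to 55.0), and the 3 sets did not overlap. Il2rg, the common gamma chain of several cytokine receptors, had 11613 and 15769 against 381 and 324 (30.5-fold). Its remaining libraries, at 256 to 544, overlapped the Hoxb5-positive pair. Ltb, which encodes lymphotoxin beta, had 7334 and 2266 against 93.3 and 64.5. Mapk12, a p38 kinase, had 455 and 248 against 6.29 and 6.52, which is the level of the remaining libraries (2.80 to 6.56). Nek6, a kinase of mitosis, had 339 and 220 against 4.19 and 8.69. Laptm4b, a lysosomal membrane protein, had 1171 and 2322 against 40.9 and 24.6, and Wfdc2, of the whey acidic protein family, 262 and 285 against 10.5 and 2.90.

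Platelet receptor and granule genes showed the reverse. Of 42 listed genes 16 were in the table and 15 passed. The Hoxb5-positive pair was higher for 13 and the Ly6a-high pair for 0, with a median separation of 2.88, and these counts were 12 to 14 across the other scalings. Of the 13, the Hoxb5-positive pair lay below all 5 remaining libraries for 6 and above them for 2, where over all 314 genes higher in that pair the shares were 34.7% and 5.10%. Itga2b, already given as the gate's marker, is a member of this list. F2rl2 encodes PAR3, the thrombin-binding receptor of mouse platelets. It had 14.2 and 49.2 normalized counts in libraries 3 and 4 and 3236 and 1985 in libraries 8 and 9, so the nearest were 40.3-fold apart (29.9 to 55.9). Treml1, a receptor stored in platelet granules, had 31.9 and 21.7 against 788 and 1310. Pf4, the chemokine platelet factor 4, had 899 and 1412 against 19643 and 17894, and the remaining 5 stood at 26211 to 39766.

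The receptor for von Willebrand factor on platelets is built from the products of Gp1ba, Gp1bb, Gp9 and Gp5, and its genes were all higher in the Hoxb5-positive pair. Gp1bb had 133 and 252 normalized counts in libraries 3 and 4 against 5662 and 4735 in libraries 8 and 9 (18.8-fold, 16.4 to 21.6). Gp1bb (chromosome 16, 18620317 to 18622403) overlaps the last exon of Sept5 on the same strand, so its reads may include that gene's. Gp5 had 189 and 259 against 4245 and 5685, below the remaining 5 libraries (8982 to 14639). Gp1ba and Gp9 were added to complete the receptor after their values were seen. Gp1ba had 29.5 and 49.2 against 730 and 327, and Gp9 had 346 and 482 against 3237 and 2699. For Gp9 the Hoxb5-positive pair lay above the remaining 5 libraries (1592 to 2313), unlike for Gp5.

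The 250 bases upstream of the start of Gp5, Gp1ba, Gp9 and Pf4 are shown because these genes of the platelet programme were higher together, and the factors GATA1 and FLI1 are known regulators of such genes. Sequences are from RefSeq (GRCm38.p6), written 5′ to 3′ on the strand of the gene. Capitals mark matches on either strand to 2 motif sets. For GATA factors the words searched were AGATAA, the variant AGATAG, the word TGATAA and the variant TGATAG. For ETS factors they were AGGAAG and the variant CGGAAG. Gp5 lies on the minus strand (chr16:30310782-30311031), and Gp1ba (chr11:70638872-70639121), Gp9 (chr6:87777820-87778069) and Pf4 (chr5:90772185-90772434) lie on the plus strand.
Gp5: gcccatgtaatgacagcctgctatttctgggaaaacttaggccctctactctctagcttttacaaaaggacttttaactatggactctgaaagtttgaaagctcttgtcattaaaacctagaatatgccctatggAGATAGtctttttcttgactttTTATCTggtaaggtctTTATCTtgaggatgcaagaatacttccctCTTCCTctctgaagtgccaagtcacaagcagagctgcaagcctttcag
Gp1ba: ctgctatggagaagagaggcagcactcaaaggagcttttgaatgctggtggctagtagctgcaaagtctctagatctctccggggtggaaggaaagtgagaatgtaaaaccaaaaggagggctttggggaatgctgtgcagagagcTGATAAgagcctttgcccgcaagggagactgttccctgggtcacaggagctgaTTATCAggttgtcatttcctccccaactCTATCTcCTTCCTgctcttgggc
Gp9: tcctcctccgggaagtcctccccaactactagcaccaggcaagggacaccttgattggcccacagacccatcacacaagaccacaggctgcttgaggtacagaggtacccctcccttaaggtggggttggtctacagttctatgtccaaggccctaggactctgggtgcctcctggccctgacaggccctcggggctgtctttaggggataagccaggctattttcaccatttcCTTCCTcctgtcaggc
Pf4: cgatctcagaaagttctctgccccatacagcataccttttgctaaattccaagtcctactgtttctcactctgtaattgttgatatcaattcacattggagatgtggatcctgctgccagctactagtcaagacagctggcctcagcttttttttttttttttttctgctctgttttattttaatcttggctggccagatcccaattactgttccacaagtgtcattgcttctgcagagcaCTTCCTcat

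The Gp5 and Gp1ba windows each held 3 GATA matches and 1 ETS match, while Gp9 and Pf4 each held 1 ETS match and 0 GATA matches. The 13 platelet receptor and granule genes higher in the Hoxb5-positive pair have 14 promoters in the RefSeq table. Of these 14, 4 (28.6%) held a GATA match, 9 (64.3%) an ETS match and 4 (28.6%) both. Of all 32851 mouse promoters of the same length in that table, 26.5% held a GATA match, 39.2% an ETS match and 9.21% both. A match of letters is a description of the sequence and shows no binding.

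**Figure D3:**
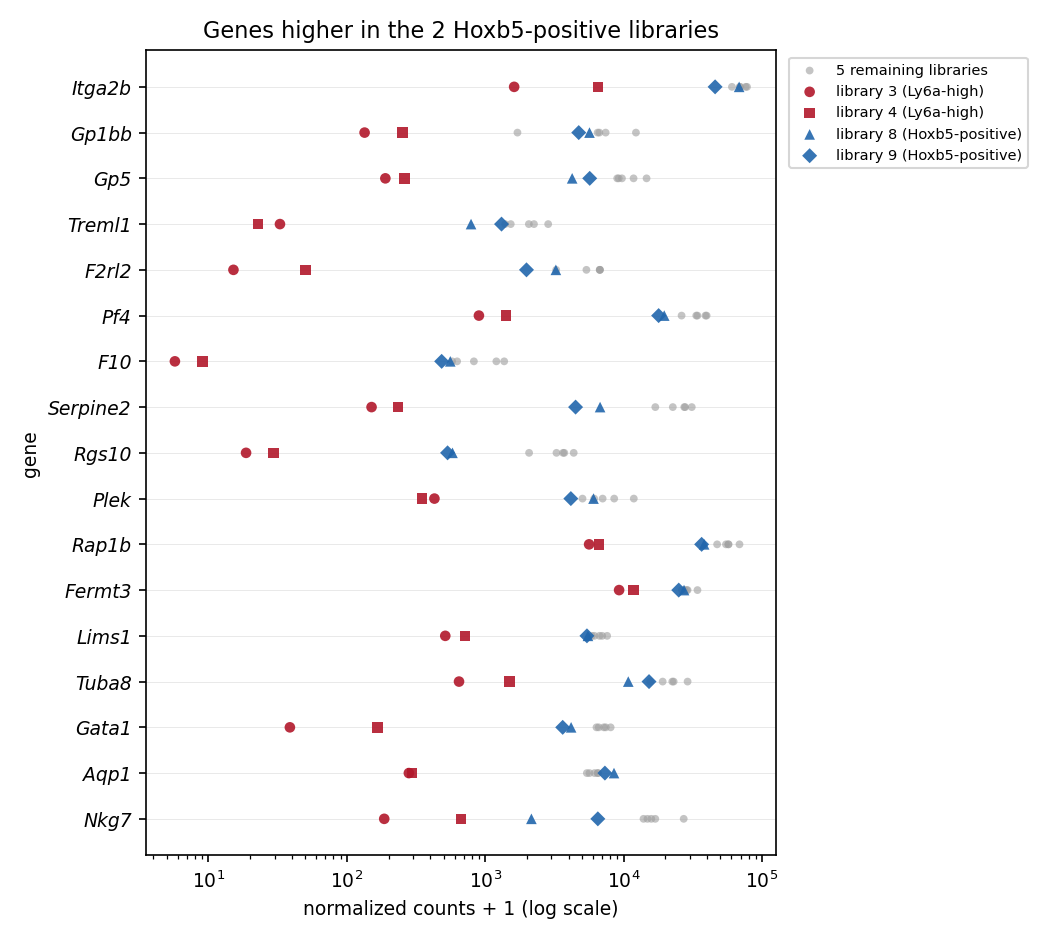
Normalized counts plus 1 (log scale) of 17 genes higher in the Hoxb5-positive pair, with 1 mark per library and colours for the 3 sets. Blue marks (libraries 8 and 9) lie to the right of all red marks (libraries 3 and 4) in each gene. In most genes they also lie to the left of all grey marks (the remaining 5). These are Gp5, Treml1, F2rl2, Pf4, F10, Serpine2, Rgs10, Rap1b, Lims1, Tuba8, Gata1 and Nkg7, some by a narrow margin. For Aqp1 the blue marks lie to the right of all grey ones.

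Of 36 listed genes of platelet signalling and coagulation 15 were in the table and 14 passed. The Hoxb5-positive pair was higher for 12, the Ly6a-high pair for 0, and the median separation was 2.50. F10, which encodes coagulation factor X (chromosome 8, 13037308 to 13056676), had the largest separation of the pairs in this direction among genes with at least 50 normalized counts in both higher libraries. It had 4.72 and 8.01 normalized counts in libraries 3 and 4 and 558 and 483 in libraries 8 and 9. The nearest libraries were 60.3-fold apart, with a wide interval (29.1 to 151). Serpine2, a secreted inhibitor of thrombin, had 150 and 233 against 6755 and 4493, and the remaining 5 stood higher at 16934 to 31054. Rgs10, which shortens G protein signals in platelets, had 17.7 and 28.6 against 579 and 533, again below the rest (2073 to 4354). Plek, which encodes pleckstrin, a substrate of protein kinase C in platelets, had 428 and 348 against 6054 and 4152. Rap1b, the small GTPase that activates integrins, had 5628 and 6624 against 38147 and 36599. Fermt3, the kindlin of blood cells, was present in all 4 libraries and 2.12-fold apart (9269 and 11817 against 27308 and 25004), but under 2-fold with table totals.

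Megakaryocyte cytoskeleton genes separated less. Of 36 listed 14 were in the table and passed, with a median separation of 0.89. The Hoxb5-positive pair was higher for 6 and the Ly6a-high pair for 0, against 13.8% and 27.4% of all genes. Lims1, an adaptor of integrin adhesions, had 513 and 713 normalized counts against 5520 and 5428. Tuba8, an alpha tubulin enriched in megakaryocytes, had 645 and 1501 against 10797 and 15253. Tuba4a, another alpha tubulin of platelets, was only 1.30-fold apart (10742 and 16539 against 21471 and 25539). Zyx, which encodes the focal adhesion protein zyxin, was 1.75-fold apart.

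Other genes that lead the ranking on the progenitor side were Ache, Mfsd2b, Ckap2l, Aqp1 and Pde10a. Ache, which encodes acetylcholinesterase, a classical marker of rodent megakaryocytes, had 51.9 and 78.9 normalized counts against 2708 and 3080 (34.3-fold). Mfsd2b, the exporter of sphingosine-1-phosphate in red cells and platelets, had 16.5 and 88.1 against 3794 and 2811. Aqp1, a water channel, had 280 and 294 against 8514 and 7318, above the remaining 5 (5422 to 6527). Pde10a, a phosphodiesterase, had 3.54 (3 reads) and 11.4 against 530 and 294.

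Erythroid markers did not follow Aqp1. Of the 6 defining erythroid markers 2 were in the table (Rhd and Ermap), and their sum was 7.08 and 14.9 normalized counts in libraries 3 and 4 and 13.6 and 149 in libraries 8 and 9. The remaining 5 libraries stood at 330 to 1539. Of 30 listed erythroid genes 9 were in the table and 6 passed. The Hoxb5-positive pair was higher for 3 and the Ly6a-high pair for 1 (5 and 0 under median-of-ratios scaling). Over all genes the shares were 13.8% and 27.4%. The part of erythroid cells in the results was not tested.

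Genes of DNA replication and mitosis were higher in the Hoxb5-positive pair. Of 52 listed replication genes 36 were in the table and passed, and 24 were higher in the Hoxb5-positive pair, 0 in the Ly6a-high pair, with a median separation of 1.11. At 4-fold this count was 0, and it was 16 with table totals and 34 under median-of-ratios scaling. Mcm5, a subunit of the replicative helicase, had 485 and 2617 normalized counts in libraries 3 and 4 and 9193 and 13227 in libraries 8 and 9 (3.51-fold, 3.36 to 3.68). Cdc6, which loads that helicase, had 36.6 and 103 against 385 and 732. Mcm6, another helicase subunit, was just under 2-fold on the scale of the call (3342 and 9920 against 19307 and 24499).

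Mitosis genes were further apart. Of 60 listed 37 were in the table and 36 passed, with 34 higher in the Hoxb5-positive pair, 0 in the Ly6a-high pair and a median separation of 2.08. At 4-fold 19 remained. Aurkb, the kinase of the chromosomal passenger complex, had 62.5 and 204 normalized counts in libraries 3 and 4 against 1413 and 2155 in libraries 8 and 9 (6.94-fold, 5.93 to 8.16). Ube2c, the ubiquitin-conjugating enzyme of the anaphase-promoting complex, had 235 and 619 against 3791 and 4833. Ckap2l, a spindle protein, had 50.7 and 134 against 3403 and 4372. For 23 of the 36 genes the Hoxb5-positive pair lay below all 5 remaining libraries, and for 0 it lay above them, against 16.4% and 19.4% of all 2274 genes. Of the 34 called genes it lay below for 21 and above for 0. Over all 314 genes higher in that pair the shares were 34.7% and 5.10%. Bub3, a checkpoint protein, was the exception among the named mitosis genes, at 1.29-fold (2554 and 3554 against 4583 and 5284).

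Within the pairs, these 2 lists ordered the libraries in a single way. Library 4 was above library 3 in 35 of 36 replication genes and 35 of 36 mitosis genes. Library 9 was above library 8 in 34 of 36 and 34 of 36. This order was not particular to the 2 lists. Genes of mitochondrial respiration followed it in 13 of 13 for both pairs. Genes of ribosome biogenesis followed it in 18 of 19 (libraries 3 and 4) and 14 of 19 (libraries 8 and 9). Over all 2274 genes library 4 was above library 3 in 1114, and library 9 above library 8 in 1125. The stem cell identity list ran against this in the Hoxb5-positive pair, with library 8 above library 9 in 19 of 20 genes, and library 3 was above library 4 in 15 of 20. The libraries of a pair thus differed among themselves: 367 of 2274 genes (16.1%) were at least 2-fold apart between libraries 3 and 4, and 292 (12.8%) between libraries 8 and 9.

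**Figure D4:**
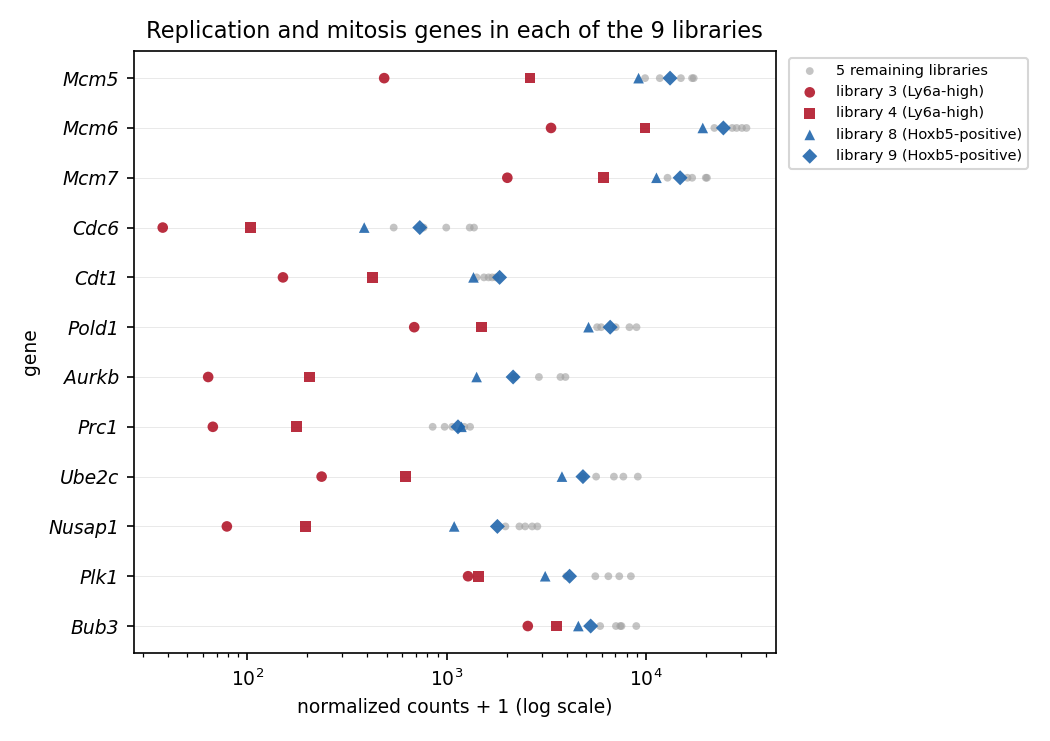
Normalized counts plus 1 (log scale) of 6 replication genes (Mcm5 to Pold1) and 6 mitosis genes (Aurkb to Bub3), with 1 mark per library. Library 3 is lowest and library 4 next in every gene shown, and the blue marks of libraries 8 and 9 lie to their right; for Aurkb these values are 62.5, 204, 1413 and 2155.

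Genes of mitochondrial respiration and ribosome biogenesis were mostly higher in the Hoxb5-positive pair as deposited, by less than 2-fold, with median separations near 0 when scaled to table totals. By any amount as deposited, that pair lay above the Ly6a-high pair without overlap for 12 of 13 respiration genes and 19 of 19 ribosome biogenesis genes, against 40.8% of all 2274 genes, while 55.8% lay the other way. Of 68 listed respiration genes 13 were in the table and passed, and 0 were at least 2-fold apart in either direction, with a median separation of 0.20 (0 with table totals). Cyc1, a subunit of respiratory complex III, had 4125 and 5860 normalized counts against 7673 and 9904 (1.31-fold). Without library 4, 2 of the 13 were called. Of 53 listed ribosome biogenesis genes 19 were in the table and passed, and 1 was at least 2-fold higher in the Hoxb5-positive pair, with a median separation of 0.42 (0.02 with table totals). That was Dkc1, the pseudouridine synthase dyskerin, with 2633 and 3314 against 6693 and 7570 (2.02-fold). The count was 10 without library 4, 4 without library 8, 2 without library 9, 4 under median-of-ratios scaling and 0 with table totals.

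Genes of the unfolded protein and amino acid stress responses were called in both directions. Of 43 listed 14 were in the table and passed. The Ly6a-high pair was higher for 3 and the Hoxb5-positive pair for 5, with a median separation of 0.70. Over all genes the shares were 27.4% and 13.8%, so the Ly6a-high count did not exceed its share. Nupr1, already counted in the aged stem cell list, is 1 of the 3. The counts were 3 and 2 with table totals and 1 and 8 under median-of-ratios scaling, and 10 genes were higher in the Hoxb5-positive pair without library 4. Trib3, a pseudokinase induced by amino acid shortage, had 1316 and 366 normalized counts against 39.8 and 8.69. Sdf2l1, a protein of the endoplasmic reticulum, had 94.4 and 408 against 1595 and 2493. Hspa5, the chaperone BiP, was 1.23-fold apart (9278 and 16471 against 20215 and 23959). Lists of sterol synthesis and glycolysis had 4 genes each, with 1 called in each, higher in the Ly6a-high pair, close to the share over all genes (27.4%). The glycolysis gene was Ldhb, a lactate dehydrogenase subunit (8434 and 7543 against 1625 and 873).

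Immediate-early genes, which cells switch on within minutes of a stimulus, were higher in the Ly6a-high pair. Of 37 listed 9 were in the table and passed, with 7 higher in that pair, 0 in the other and a median separation of -1.76. Junb, a subunit of the AP-1 factor, had 4775 and 6617 normalized counts against 889 and 642, and the remaining 5 stood at 537 to 760. Gem, a small GTP-binding protein, had 1050 and 351 against 10.5 and 25.4. Ier2 had 9471 and 7334 against 1536 and 2742.

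Interferon response genes were also higher in the Ly6a-high pair. Of 65 listed 27 were in the table besides Ly6a and passed, with a median separation of -1.16. In that pair 16 were higher and in the other 0, against 27.4% and 13.8% of all genes. The count was 24 with table totals and 9 under median-of-ratios scaling. Rtp4, a chaperone of receptors induced by interferon, had 1697 and 1573 normalized counts against 74.4 and 120. Iigp1, a GTPase that attacks the vacuoles of parasites, had 1414 and 339 against 37.7 and 47.8. Tap1, the peptide transporter of antigen presentation, did not follow, at 2330 and 1873 against 2923 and 3870. Of 31 listed NF-kB targets 9 were in the table and passed. The Ly6a-high pair was higher for 5 (3 under median-of-ratios scaling) and the Hoxb5-positive pair for 1, against the same shares of all genes. Icam1, an adhesion molecule, had 1318 and 888 against 300 and 205. Il1b, which encodes interleukin 1 beta, was listed at 0 in library 3 and had 2.29 in library 4 against 34.6 and 21.7, at least 6.14-fold higher in the Hoxb5-positive pair by the floor of 3 reads per library. Of 23 listed p53 targets 5 were in the table and passed, with 3 higher in the Ly6a-high pair and 0 in the other. The median separation was -1.53, and the shares over all genes were 27.4% and 13.8%. Rps27l and Aen, the other 2, were higher in the Hoxb5-positive pair without overlap but by less than 2-fold. Rps27l had 618 and 841 against 1104 and 1226, and Aen 403 and 656 against 812.5 and 978.5.

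**Figure D5:**
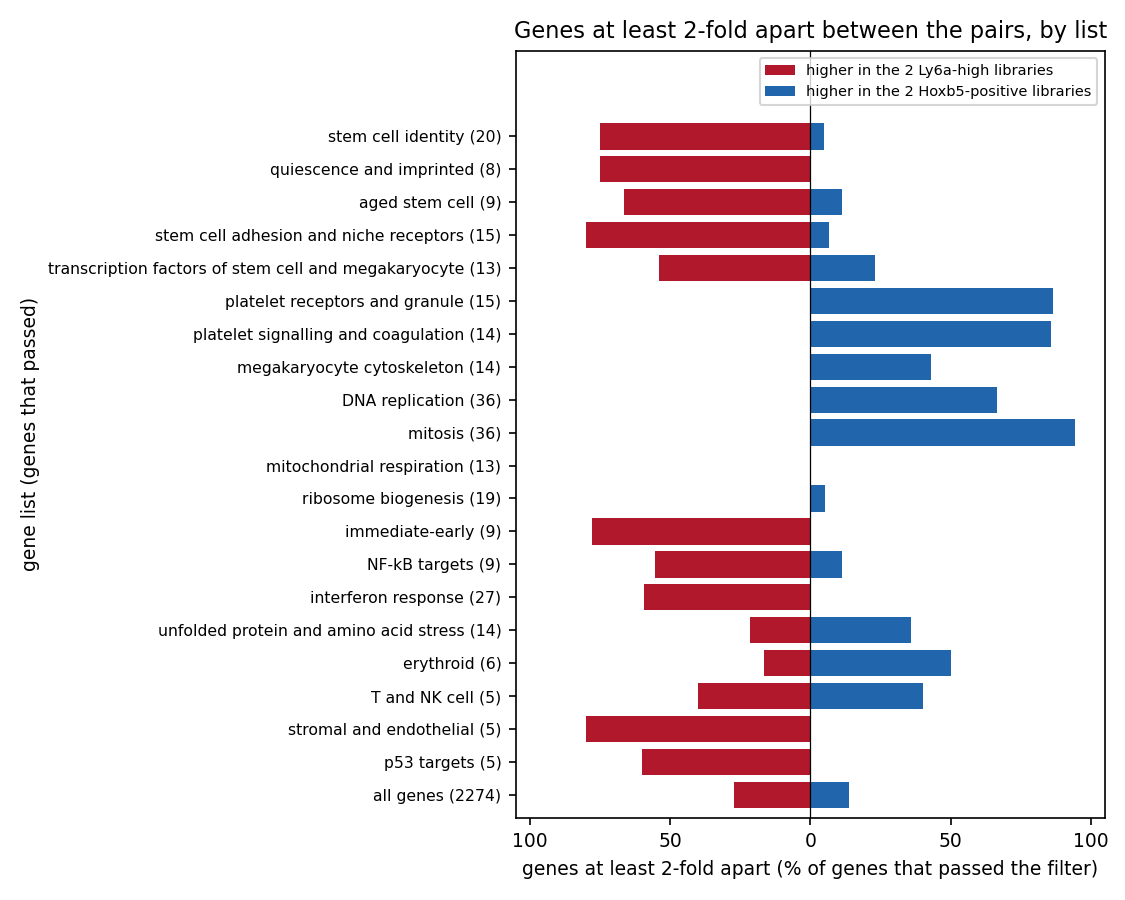
Share of genes at least 2-fold apart (% of the genes of each list that passed the filter, their number in brackets), to the left for the Ly6a-high pair and to the right for the Hoxb5-positive pair. The mitosis bar reaches farthest right (34 of 36) and the adhesion bar, tied with the stromal and endothelial one, farthest left (12 of 15), while the bar of all genes shows 27.4% and 13.8%.

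Markers of other blood cells differed between the pairs for some cell types. Of 6 neutrophil and monocyte markers 3 were in the table (Prtn3, Csf3r and Csf1r), and their sum was 12916 and 12329 normalized counts in libraries 3 and 4, 2138 and 1969 in libraries 8 and 9, and 335 to 1505 elsewhere. Prtn3, which encodes proteinase 3 of granulocyte precursors, made up most of this (12248 and 11466 against 2006 and 1767). Csf1r, the receptor that defines monocytes, was higher in the Hoxb5-positive pair. It was listed at 0 in library 3 and at 1.14 in library 4, against 15.7 and 82.6 in libraries 8 and 9. Of 4 T and NK cell markers 3 were in the table (Lck, Nkg7 and Klrb1c), with a sum of 723 and 1180, then 2236 and 6546, then 13926 to 27179. Nkg7, a granule protein of cytotoxic cells, set this order (185 and 667, then 2153 and 6507, then 13914 to 27162). Klrb1c ran the other way (493 and 469, then 68.2 and 12.3, then 0 to 4.92). Fcer1a (1 of 3 mast cell and basophil markers) had 0 and 3.43 against 19.9 and 23.9, and the pairs overlapped for Vpreb1 (1 of 3 B cell markers), at 8.26 and 5.72 against 6.29 and 12.3. Cd5l (1 of 3 macrophage markers) was listed at 0 in libraries 3 and 4 and had 6.29 and 39.8 in libraries 8 and 9, and neither Vpreb1 nor Cd5l passed the filter. The part of such cells in the differences between the pairs was not tested.

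Libraries 8 and 9 were also placed against the other 5 Ly6a-low libraries, gene by gene. Over all 2274 genes libraries 8 and 9 lay above all 5 remaining libraries for 441 (19.4%) and below them for 373 (16.4%). Of the 623 genes higher in the Ly6a-high pair they lay above for 243 (39.0%) and below for 8 (1.28%). Of the 314 genes higher in the Hoxb5-positive pair they lay above for 16 (5.10%) and below for 109 (34.7%). The first of these placements counted 426 genes and the second 35 with table totals, and without library 9 they counted 385 and 34; without library 8 the second was 26. Hoxb5, one of the stem cell genes, chose the pair, so these counts describe the libraries and test nothing.

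Genes for which the Hoxb5-positive pair lay far above the remaining 5 libraries, and yet below the Ly6a-high pair, included Ndn and Tgm2 (6.80-fold above the highest remaining library), both described with their lists. Clec1a, a C-type lectin receptor, had 2064 and 1296 normalized counts, then 483 and 259, then 11.95 to 57.4. Pglyrp2, a peptidoglycan recognition protein, had 2256 and 2547, then 468 and 226, then 29.4 to 52.2. Gata3, a transcription factor of T cells that stem cells also make, had 2350 and 1316, then 331 and 243, then 28.0 to 62.9. Sfrp1, a secreted modulator of Wnt signals, had 114 and 97.3, then 20.97 and 7.97, and was listed at 0 in all 5 remaining libraries. Bpifb5 and Ddr1, a collagen receptor, were likewise listed at 0 in those 5, with 15.7 and 7.97 for Bpifb5 and 9.44 and 3.62 for Ddr1 in libraries 8 and 9. For Ddr1 the 3.62 of library 9 lies below what 3 reads are worth in 4 of the 5 remaining libraries, so its place above them is not resolved. For Clec1a, Pglyrp2, Gata3 and Sfrp1 the order was Ly6a-high, then Hoxb5-positive, then remaining, without overlap. With values under 3 reads raised to 3 reads, libraries 8 and 9 lay above the remaining 5 for 214 genes of the Ly6a-high side.

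A few genes set the Hoxb5-positive pair apart from all 7 other libraries, and these were singled out after their values were seen. At least 2-fold above all 7 were 2 of 2274 genes (0.0880%), Cited4 and Gfra2, and at least 2-fold below all 7 was 1 (0.0440%), Trib2. Cited4, a transcriptional co-activator that binds CBP and p300, had 2024 and 2356 normalized counts in libraries 8 and 9. It had 114 and 128 in libraries 3 and 4 and 325 to 938 in the remaining 5, so that the pair stood 2.16-fold above the next library. Gfra2, a co-receptor for neurturin, had 11.5 and 10.1 against at most 3.93 elsewhere, close to the floor of a few reads. Trib2, a pseudokinase, had 3.15 and 7.97 in libraries 8 and 9, 169 and 102 in libraries 3 and 4 and 27.5 to 34.8 in the remaining 5.

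Some abundant genes were close to level over the 4 libraries. Of those with a median of at least 1000 normalized counts, Zfr, Tcea1, Ptpn1, C1d and Lrrc41 varied least. Tcea1, a transcription elongation factor, had 1269 and 1273 in libraries 3 and 4 and 1652 and 1660 in libraries 8 and 9. Ptpn1, the phosphatase PTP1B, had 1458 and 1585 against 1194 and 1208. Zfr, an RNA-binding zinc finger protein, spanned 1.31-fold from lowest to highest library (1076 and 1039 against 1358 and 1295), and so did Tcea1.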

How the data were processed

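Messenger RNA of 9 sorted bone marrow samples was sequenced by the authors. Per the labels' protocols, Trizol was used for the RNA and a NEBNext Ultra kit for the libraries. The values deposited by the authors are normalized counts (a scaled signal) for 2402 genes, in 9 rows without names. Per the submitters' processing notes, mm10, Bowtie2, STAR and DESeq were used, with no role or version named. Not given in the sources used here are the counter, the annotation, the scaling, how genes were chosen, and whether samples came from separate animals.

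Low values of each library were whole multiples of what 1 read is worth (0.724 to 1.96 normalized counts). Dividing by this step gave whole reads within 0.1 for 100% of values under 1000 reads. These reads served for counting intervals (95%) and for the floor of 3 reads. Because rows have no sample, none was assigned to a labelled group, and no count test, mean or SD was made. Libraries with at least 1000 normalized counts of Ly6a, and those below this with at least 50 of Hoxb5, were described side by side.

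Genes that reached 10 normalized counts in 2 or more of the 4 libraries entered (2274), and log2 values had a pseudocount of 1. A log2 separation understates the difference of low genes, so folds are ratios of deposited values.

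The libraries, the 26 gene lists and the rules were chosen with earlier results of these data known. Ly6a and Hoxb5 were left out of all list counts. Lists share some genes, so their counts are not independent. Examples are Nupr1 (aged stem cell and stress lists) and Alcam (aged stem cell and adhesion lists). Others are Ltb (stem cell identity and NF-kB lists) and Hlf (stem cell identity and transcription factor lists). Named genes were the 3 markers, of each list the 4 genes with the largest separation and the 2 with the highest median, the 10 with the largest separation in each direction (at least 50 normalized counts in both higher libraries), the 10 for which the Hoxb5-positive pair lay farthest above the remaining libraries, and the 5 with the smallest difference (median at least 1000). Not every named gene is given values here.

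Of the symbols 2258 matched GENCODE M21, from which gene positions come. Promoters are from RefSeq (GRCm38.p6). The scripts ran in Python 3.11.15 with pandas 2.3.3, numpy 2.4.6, scipy 1.17.1 and matplotlib 3.10.9 and were tested on simulated data. Alternatives were the pseudocount, the filter, the scaling, the fold, the treatment of values under 3 reads, and leaving out each of the 4 libraries.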

Additional observations from a re-analysis of the deposited data

How the results depend on the processing

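Of 1380 separations of 138 named genes recomputed under the alternatives, 1138 moved by no more than the larger SD of the log2 values within a pair, 242 moved by more and 0 of those at least 2-fold apart changed sign. Only the scalings and the raising of values under 3 reads could change such a sign. The pseudocount, the filter, the fold and leaving out a library could not, so for them the 0 was fixed in advance. Of 440 list counts (20 lists, 11 alternatives) 390 stayed within 1.5 times and 50 did not. With table totals, the genes of the Ly6a-high side for which libraries 8 and 9 lay above the remaining 5 numbered 426, and those of the Hoxb5-positive side 35. Under median-of-ratios scaling 475 genes were higher in the Hoxb5-positive pair. At 4-fold the counts were 255 and 111 for the pairs and 110 and 10 for the placements. Leaving out 1 library at a time gave 535 to 819 genes higher in the Ly6a-high pair and 277 to 527 higher in the Hoxb5-positive pair (527 without library 4). The placements ranged from 229 to 385 (385 without library 9) and from 17 to 34 (34 without library 9, 26 without library 8). By construction, leaving a library out alters which genes pass and how many values must lie apart. For the scalings the cause was not tested. No paired analysis was possible because the libraries carry no sample names or replicate numbers and no test was made. Genes at or under 3 reads in a pair (2.17 to 3.54 normalized counts) give no upper limit to a fold, and 2 libraries per pair give no measure of the spread between animals.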

Other observations

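The libraries of each pair differed in direction on the genes that separate the pairs. Of the 623 genes higher in the Ly6a-high pair, library 3 was above library 4 in 484 and library 8 above library 9 in 446. Over all 2274 genes these counts were 1158 and 1147. Of the 314 genes higher in the Hoxb5-positive pair, library 4 was above library 3 in 261 and library 9 above library 8 in 216, against 1114 and 1125 of all 2274.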
